A study of Rattus norvegicus with 18 samples.

Results

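Neuropeptide Y and its receptors were followed across 3 brain regions of ovariectomized rats given estradiol benzoate or oil. The members are 5 genes, Npy and the receptor genes Npy1r, Npy2r, Npy4r and Npy5r, taken as the gene probe sets whose platform symbol is one of these names. They are 5 of the 23188 gene probe sets of the array, and each symbol has 1 probe set, so no choice between probe sets was needed. Their Entrez Gene identifiers on the platform are 24604 for Npy, 29358 for Npy1r, 66024 for Npy2r, 29471 for Npy4r and 25340 for Npy5r.

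Rat Clariom S Pico arrays measured RNA from bilateral tissue punches of the arcuate nucleus (ARC), the paraventricular nucleus (PVN) and the nucleus tractus solitarius (NTS). All animals were female Sprague-Dawley rats, 90 days old, and all were ovariectomized (OVX). Rats of the EB groups received 10 µg of estradiol benzoate in 0.1 mL of oil on days 1 and 2, rats of the Oil groups received oil alone, and tissue was collected on day 4. Ovariectomy is thus shared by both groups, and no group with intact ovaries was analysed here. Each of the 6 groups holds 3 samples, 18 arrays in all, written below as region, treatment and the label's own replicate number. Each treatment was given to 3 rats, so the samples of the 3 regions come from shared animals, and the labels do not say which samples are from 1 rat. Tests between regions treat the arrays as independent, and their p-values do not account for shared rats.

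Neuropeptide Y is an appetite-stimulating peptide that neurons of the ARC make together with the agouti-related peptide and send to the PVN, and catecholamine neurons of the hindbrain make it too. Its receptors couple to Gi/o proteins, which lower cyclic AMP, open inwardly rectifying potassium channels and close presynaptic calcium channels. The products of Npy1r and Npy5r mediate the stimulation of feeding, that of Npy2r acts largely as a presynaptic autoreceptor that lowers release, and that of Npy4r prefers pancreatic polypeptide and is known from the dorsal vagal complex.

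Npy1r and Npy5r are neighbours on chromosome 16, on opposite strands. Sequences before a start are shown for these 2 neighbours. Npy1r was called with EB, while Npy5r lay below background in every array, so the 2 give no contrast of EB responses. All 5 genes were matched to RefSeq promoter windows (build GRCr8) of 300 bases, from 250 before to 50 after a start. For Npy1r and Npy2r this start lies inside the annotated span of the gene, so their windows are not upstream of the whole gene. The 250 bases before the start of the window's match are printed for Npy1r (chr16:27813388-27813637, minus strand) and Npy5r (chr16:27821805-27822054, plus strand). Capitals mark the only match in these 2 runs to the motifs searched.
Npy1r: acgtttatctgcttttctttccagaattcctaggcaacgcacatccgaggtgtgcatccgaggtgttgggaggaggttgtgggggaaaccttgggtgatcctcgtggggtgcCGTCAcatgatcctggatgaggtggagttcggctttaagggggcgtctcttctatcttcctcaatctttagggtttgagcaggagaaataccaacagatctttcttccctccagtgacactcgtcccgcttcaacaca
Npy5r: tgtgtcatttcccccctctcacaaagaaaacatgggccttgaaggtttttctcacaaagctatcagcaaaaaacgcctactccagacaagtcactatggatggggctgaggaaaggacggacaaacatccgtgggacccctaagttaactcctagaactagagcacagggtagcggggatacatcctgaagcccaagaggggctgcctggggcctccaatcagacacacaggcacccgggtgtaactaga
Both strands of the windows were searched for the palindromic estrogen response element GGTCANNNTGACC, its half-site GGTCA, the cyclic AMP response element half-site TGACG, the Sp1 box GGGCGG and the TATA box TATAAA. The half-site of the estrogen response element lies within the full element. Npy1r held 1 TGACG, on the minus strand of the printed run, whose first printed base is 138 bases before the start, and 21.2% of 33469 RefSeq windows of this length hold one. Npy held 1 GGGCGG, 91 bases before its start, which 33.1% of windows hold. No window of the 5 genes held the full estrogen response element, which 9 of the 33469 windows hold, nor GGTCA, which 40.5% hold, nor TATAAA, which 14.2% hold. Matches describe letters in these windows and not bound sites.

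All values below are signal intensities on the log2 scale. Array medians over the gene probe sets lay between 7.74 and 8.0. Each array has 23 background probe sets, whose median was 6.74 in ARC Oil 1 and 7.37 to 7.60 in the other arrays, and a signal below it is called below background here. Several samples stood apart in the marker genes of their region. The mean of the 7 measured ARC markers was 7.50 in ARC EB 2 and 8.82 to 10.69 in the other ARC samples, and the mean of 9 measured midbrain dopamine and mammillary markers was 9.92 there, against 7.06 to 8.74. Those midbrain means were 8.64 in PVN Oil 1 and 8.70 in PVN Oil 3, against 6.17 to 6.69 in the other PVN samples. ARC Oil 1 had the highest mean of the 7 PVN markers in the ARC, 9.57 against 6.92 to 7.38. The mean of the 6 measured NTS markers was 7.02 in NTS Oil 3, where the remaining NTS samples had 9.01 to 9.61. NTS samples also differed in the mean of 4 choroid plexus genes. It was 6.31, 6.76 and 8.17 in NTS EB 1, EB 2 and Oil 3, against 12.02 to 14.23 in the others. In punches of this kind fewer cells of a type and less RNA per cell cannot be told apart.

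**Figure D1:**
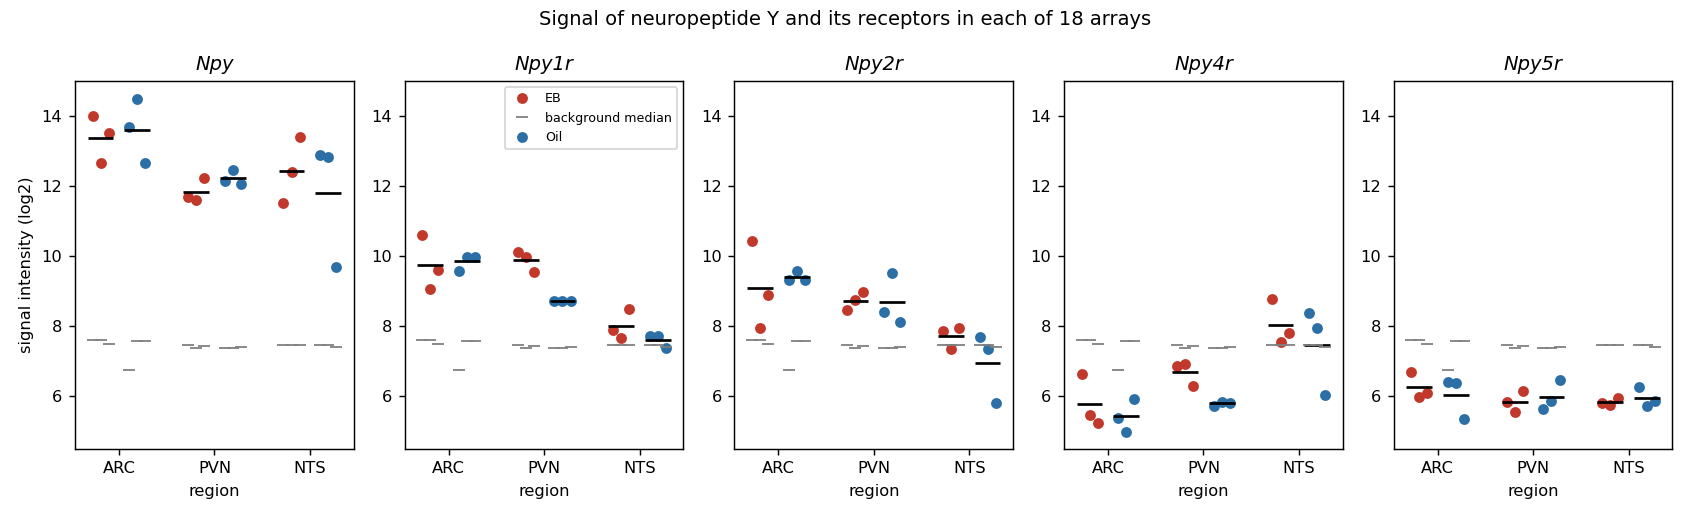
Signal intensity (log2, vertical axis) of each gene in the 18 arrays, grouped by region, with EB in red and Oil in blue, bars at the mean of 3 samples and grey dashes at the background median of each array. Npy read 9.69 to 14.49 and lay above background in 18 of 18 arrays, while Npy5r lay below it in every array.

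Npy lay above background in 18 of 18 arrays, Npy1r in 17, Npy2r in 15, Npy4r in 5, all from the NTS, and Npy5r in 0. Above the highest of the background probe sets, a stricter limit, lay Npy in 18, Npy1r in 13, Npy2r in 11, none of them from the NTS, Npy4r in 1 and Npy5r in 0. For EB against Oil the call of a gene needed an unadjusted p not above 0.05 together with at least a 2-fold change. By this rule 0 of the 5 genes were called for ARC, where 0.479% of all genes were, 1 for PVN, where 0.332% were, and 0 for NTS, where 0.0776% were. EB and Oil samples did not overlap for 0 of the 5 genes in the ARC (11.2% of all genes), for 2 in the PVN (12.4%) and for 0 in the NTS (11.2%). With so few members these shares describe the 5 genes and say nothing of the group as a whole. Between regions, with both treatments averaged and a call at an adjusted p under 0.05 over all genes, 1 of the 5 differed between ARC and PVN (21.4% of all genes), 4 between ARC and NTS (44.3%) and 3 between PVN and NTS (37.5%). No gene of the whole array passed the test of a different EB effect in the PVN and ARC (0%), the PVN and NTS (0%) or the NTS and ARC (0%) by limma, although 1164, 900 and 1415 genes had an unadjusted p under 0.05.

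Npy, the gene of the peptide itself, was highest in the ARC. The ARC samples read 13.99, 12.65 and 13.52 with EB and 13.69, 14.49 and 12.65 with Oil. The PVN samples read 11.68, 11.61 and 12.22 with EB and 12.15, 12.45 and 12.07 with Oil. Every ARC sample exceeded every PVN sample, by 1.47 on average (SE 0.50, 2.77-fold). This difference passed narrowly over all genes (limma adjusted p = 0.0467), and the exact permutation p over 6 arrays against 6 was 0.00216, the smallest 6 against 6 can give. Leaving out 1 array at a time ended the call for 10 of the 12 arrays, with differences of 1.25 to 1.57 and adjusted p up to 0.113, and kept it without ARC EB 2 (1.65) or ARC Oil 3 (1.71).

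In the NTS, Npy read 11.51, 12.41 and 13.41 with EB and 12.88, 12.84 and 9.69 with Oil. NTS Oil 3 was thus 1 sample far below the others, and the remaining NTS samples spanned the PVN range and reached into that of the ARC. The ARC exceeded the NTS by 1.38 (SE 0.50, limma adjusted p = 0.035), with overlapping samples. The call is lost without NTS Oil 3 (0.85, adjusted p = 0.0686) and without any of ARC EB 1, ARC EB 3, ARC Oil 1, ARC Oil 2, NTS EB 1 or NTS EB 2 (1.15 to 1.37). The PVN and NTS means differed by -0.09 as PVN minus NTS (95% interval -1.15 to 0.97).

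With EB, the mean Npy signal was below that with Oil in ARC (-0.22, SE 0.50) and PVN (-0.39, SE 0.20) and higher in the NTS (0.64, SE 0.91), and none of these was called. The PVN interval, -0.85 to 0.07, is the narrowest of the 3, and there the highest EB sample overlapped the Oil samples (exact permutation p = 0.3). The ARC interval runs from -1.39 to 0.94 and the NTS interval from -1.51 to 2.80, so a 2-fold fall lies inside both and a 2-fold rise inside the second. Without ARC EB 2 the ARC difference is 0.14, without ARC Oil 2 it is 0.22, and without NTS Oil 3 the NTS difference is -0.42.

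**Figure D2:**
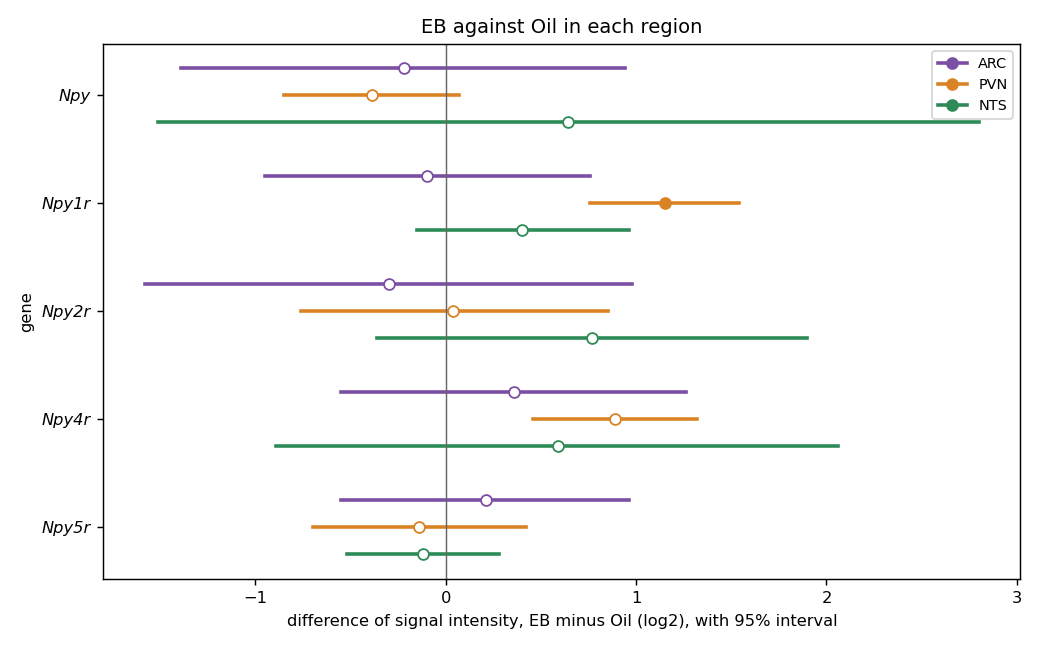
Difference of signal intensity between EB and Oil (log2, horizontal axis) for each gene in the ARC, PVN and NTS, with limma's 95% interval over 3 against 3 arrays and a filled point where the gene was called. Only Npy1r in the PVN is filled, at 1.15.

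Npy1r, the receptor gene called with EB, had its highest group means in the PVN with EB and in the ARC. ARC samples read 10.60, 9.05 and 9.61 with EB and 9.58, 9.99 and 9.99 with Oil. PVN samples read 10.12, 9.97 and 9.54 with EB and 8.71, 8.73 and 8.73 with Oil. The PVN Oil samples lay within 0.02 of each other and below every ARC sample, while the PVN EB samples lay inside the ARC range. The EB minus Oil difference in the PVN was 1.15 (SE 0.17, 95% interval 0.76 to 1.54, 2.23-fold), the fourth smallest p of 23188 genes (limma p = 1.60e-04, adjusted p = 0.681), and the exact permutation p was 0.1, the smallest 3 against 3 can give.

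In these samples the order of the ARC and PVN means of Npy1r therefore differed by treatment, though the EB samples of the regions overlapped. Among Oil samples alone, the ARC exceeded the PVN by 1.13 (limma adjusted p = 0.0279). Among EB samples alone, ARC minus PVN was -0.12 (adjusted p = 0.872). Over both treatments it was 0.50 (adjusted p = 0.106), and without ARC EB 2 it was 0.68 and passed (adjusted p = 0.0208). The test of the difference itself, the EB effect in the PVN minus that in the ARC, gave 1.25 (SE 0.43, 95% interval 0.34 to 2.16) and did not pass over all genes (limma adjusted p = 0.966).

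Leaving out 1 PVN array at a time left the Npy1r call in place in each of the 6 fits, with differences from 1.03 to 1.32. With both high-midbrain samples, PVN Oil 1 and PVN Oil 3, left out, it was 1.15 (limma adjusted p = 0.964) and rested on 1 Oil sample, which limma takes to vary like the others. PVN Oil 2 read 8.73 for Npy1r with a midbrain marker mean of 6.45, inside the range of the EB samples, 6.17 to 6.69. Regional markers moved in the same comparison, in which 0.332% of all genes were called. Of the 7 PVN markers, 2 were called higher with EB and 0 lower (median 0.87, range -0.11 to 5.16). Of the 9 measured midbrain markers, 4 were called lower with EB and 0 higher (median -1.68, range -3.18 to 0.24). The mean of the 7 PVN markers was 9.70, 10.46 and 7.96 in the EB samples and 6.82, 8.83 and 6.85 in the Oil samples. The part of tissue content in the Npy1r difference was not tested.

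In the NTS, Npy1r was lower, at 7.89, 7.65 and 8.49 with EB and 7.72, 7.71 and 7.38 with Oil. NTS Oil 3 lay below the background median and the other 5 samples above it, of which NTS EB 3 alone was also above the highest background probe set. All ARC and all PVN samples exceeded all NTS samples, by 2.00 (SE 0.21, limma adjusted p = 5.52e-06) and 1.49 (SE 0.21, adjusted p = 8.87e-05). These 2 calls held in each of the 12 fits without 1 array, with differences of 1.78 to 2.17 and of 1.40 to 1.61. EB minus Oil was -0.10 in the ARC (SE 0.37) and 0.40 in the NTS (SE 0.23), neither called, and the EB effect in the PVN minus that in the NTS was 0.75 (SE 0.43, adjusted p = 0.999).

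Npy5r, the neighbour of Npy1r and the other receptor gene of the feeding response, gave no signal above background. It read 5.35 to 6.69 in the ARC, 5.55 to 6.45 in the PVN and 5.71 to 6.26 in the NTS. No fold is given for a gene below background on both sides. Its PVN samples read 5.85, 5.55 and 6.15 with EB and 5.65, 5.87 and 6.45 with Oil, which overlapped where those of Npy1r did not. In these data the array gave no level from which a change of Npy5r could be read.

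Npy2r, the gene of the autoreceptor, was higher in the ARC and PVN than in the NTS. ARC samples read 10.44, 7.96 and 8.90 with EB and 9.31, 9.59 and 9.31 with Oil. PVN samples read 8.46, 8.75 and 8.97 with EB and 8.41, 9.52 and 8.12 with Oil, inside the ARC range. NTS samples read 7.85, 7.35 and 7.94 with EB and 7.70, 7.35 and 5.80 with Oil, and 3 of these 6 lay below background and none above the highest background probe set. Every ARC and every PVN sample exceeded every NTS sample. On the measured signals the differences were 1.92 for ARC minus NTS (SE 0.38, limma adjusted p = 9.58e-04) and 1.38 for PVN minus NTS (SE 0.38, adjusted p = 0.0106). With the 3 NTS signals below background raised to the background median of their arrays they were 1.61 and 1.07. Both calls held without any 1 array (1.58 to 2.21 and 1.09 to 1.56). Among EB samples alone they were 1.39 (adjusted p = 0.0804) and 1.01 (adjusted p = 0.203) and did not pass. ARC and PVN differed by 0.54 (SE 0.38, adjusted p = 0.337).

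EB did not move Npy2r past the threshold in any region. The differences were -0.30 for the ARC (SE 0.55), 0.04 for the PVN (SE 0.35) and 0.77 for the NTS (SE 0.48). Single samples set their size. Without ARC EB 2, the lowest ARC sample, the ARC difference is 0.27, and without NTS Oil 3 the NTS difference is 0.19. In the PVN the 2 Oil samples with high midbrain markers were the lowest 2 of the 6, at 8.41 and 8.12, and without both of them the difference is -0.79 (limma adjusted p = 0.964) against the single sample PVN Oil 2.

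Npy4r, the receptor gene for pancreatic polypeptide, was the only member that was highest in the NTS. NTS samples read 8.77, 7.54 and 7.81 with EB and 8.38, 7.95 and 6.04 with Oil. All but NTS Oil 3 lay above the background median, and NTS Oil 1 alone lay above the highest background probe set. ARC samples read 6.63, 5.47 and 5.24 with EB and 5.37, 4.99 and 5.91 with Oil, all below background. Relative to the floor that background sets, the mean Npy4r signal was at least 1.24-fold higher in the NTS than in the ARC and at least 1.26-fold higher than in the PVN. These bounds, 0.31 and 0.34 in log2, concern the means of these samples and carry no error. NTS samples ran from 6.04 to 8.77. The floor is, on each array of the dimmer region, the higher of the background median and the signal itself. On the measured signals the differences were -2.15 for ARC minus NTS (SE 0.35, limma adjusted p = 2.17e-04) and -1.51 for PVN minus NTS (SE 0.35, adjusted p = 0.00374), and both calls held without any 1 array (-2.50 to -1.92 and -1.86 to -1.28). Only among EB samples alone was PVN minus NTS not called (-1.36, adjusted p = 0.0684).

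In the PVN, Npy4r read 6.85, 6.92 and 6.29 with EB and 5.73, 5.85 and 5.82 with Oil. Every EB sample exceeded every Oil sample, as for Npy1r, but all 6 lay below background. The mean difference was 0.89 (SE 0.18, p = 0.00152, limma adjusted p = 0.681, exact permutation p = 0.1), under the fold change of 2 that a call needs, and no fold is given for signals below background. Without PVN EB 3 it is 1.09 and would be called, while without PVN Oil 1 and Oil 3 it is 0.84. The EB minus Oil difference in the NTS, where 5 of 6 samples lay above the background median, was 0.59 (SE 0.62), or -0.12 without NTS Oil 3, and in the ARC it was 0.36 (SE 0.39), or -0.07 without ARC EB 1. The EB effect in the PVN did not differ past the threshold from that in the ARC (0.53, SE 0.71, adjusted p = 0.984) or NTS (0.30, SE 0.71, adjusted p = 0.999).

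**Figure D3:**
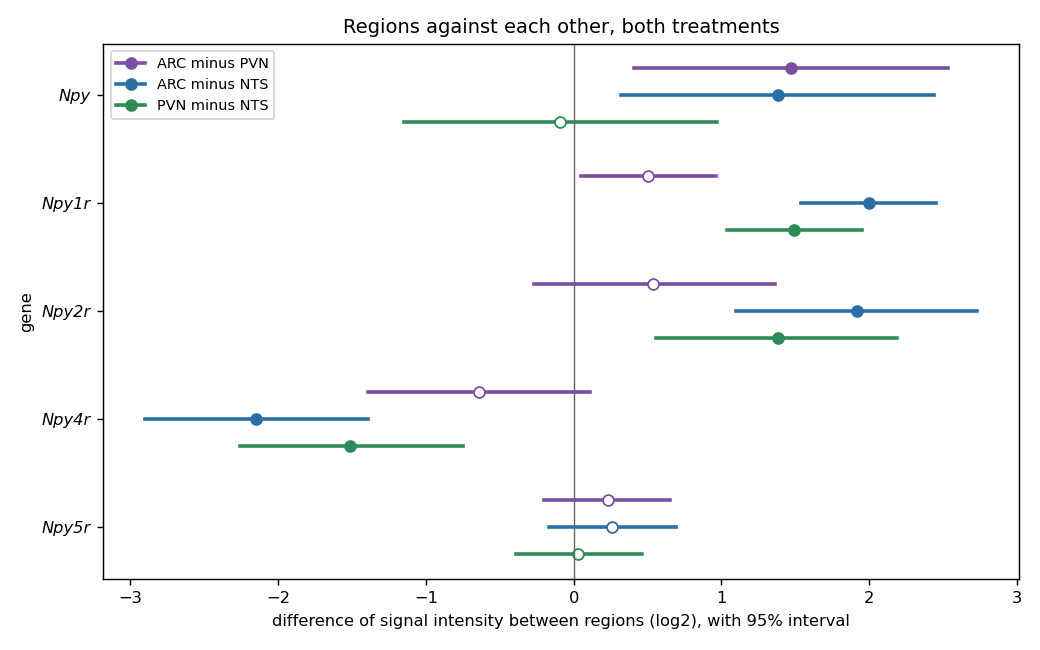
Difference of signal intensity between regions (log2, horizontal axis) for each gene, both treatments averaged, with limma's 95% interval from 18 arrays and a filled point where the adjusted p was under 0.05. Npy1r and Npy2r lie right of zero against the NTS, at 1.38 to 2.00, and Npy4r lies left of it, at -2.15 and -1.51.

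The groups can be ranked for each gene by their means. For Npy the order was ARC Oil, ARC EB, NTS EB, PVN Oil, PVN EB and NTS Oil, and each group overlapped the next. For Npy1r it was PVN EB, ARC Oil, ARC EB, PVN Oil, NTS EB and NTS Oil, with no overlap between ARC EB and PVN Oil (1.03 apart) or between PVN Oil and NTS EB (0.71 apart). For Npy2r the order ran ARC Oil, ARC EB, PVN EB, PVN Oil, NTS EB and NTS Oil, where only PVN Oil and NTS EB did not overlap (0.97 apart). For Npy4r NTS EB and NTS Oil, which overlapped, came first, and the ARC and PVN groups, below background in every sample, have no order. Npy5r had no order above background.

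In the ARC and NTS, 1 sample each was lowest for several members and also lowest in the markers of its region. ARC EB 2 read lowest of the 6 ARC samples for Npy1r (9.05) and Npy2r (7.96) and shared the lowest value of Npy with ARC Oil 3 (12.65). It had the lowest mean of the ARC markers, 7.50, with Pomc, a defining gene of the ARC, at 5.38. The 2 highest ARC samples for Npy, ARC Oil 2 and ARC EB 1, also had the 2 highest marker means, 10.69 and 10.42. ARC EB 1 was the highest for each of the 4 receptor genes, Npy4r and Npy5r being below background there too. In the PVN no sample was lowest for more than 1 of Npy (PVN EB 2), Npy1r (PVN Oil 1) and Npy2r (PVN Oil 3).

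NTS Oil 3 read lowest of the NTS samples for Npy (9.69, next 11.51), Npy1r (7.38, next 7.65), Npy2r (5.80, next 7.35) and Npy4r (6.04, next 7.54). Its mean over 5 noradrenergic and adrenergic genes was 6.23, against 8.02 to 8.28 in the other 5 NTS samples. Among those, Th, tyrosine hydroxylase of the catecholamine pathway, was at 7.50 against 10.94 to 12.12, and Chat, the acetylcholine-making enzyme of vagal motor neurons and an NTS marker here, read 6.95 against 9.42 to 12.34. Among the other 5 NTS samples Npy did not follow the NTS marker mean. NTS EB 1, the highest in NTS markers (9.61), was the lowest of them in Npy (11.51). Over these 5, Npy ranked in the order of the mean of 4 choroid plexus genes. That mean was 6.31 in NTS EB 1, 6.76 in EB 2, 12.02 in Oil 2, 12.07 in Oil 1 and 14.23 in EB 3. In NTS Oil 3 it was 8.17. The part of tissue content in the levels of the members was not tested.

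**Figure D4:**
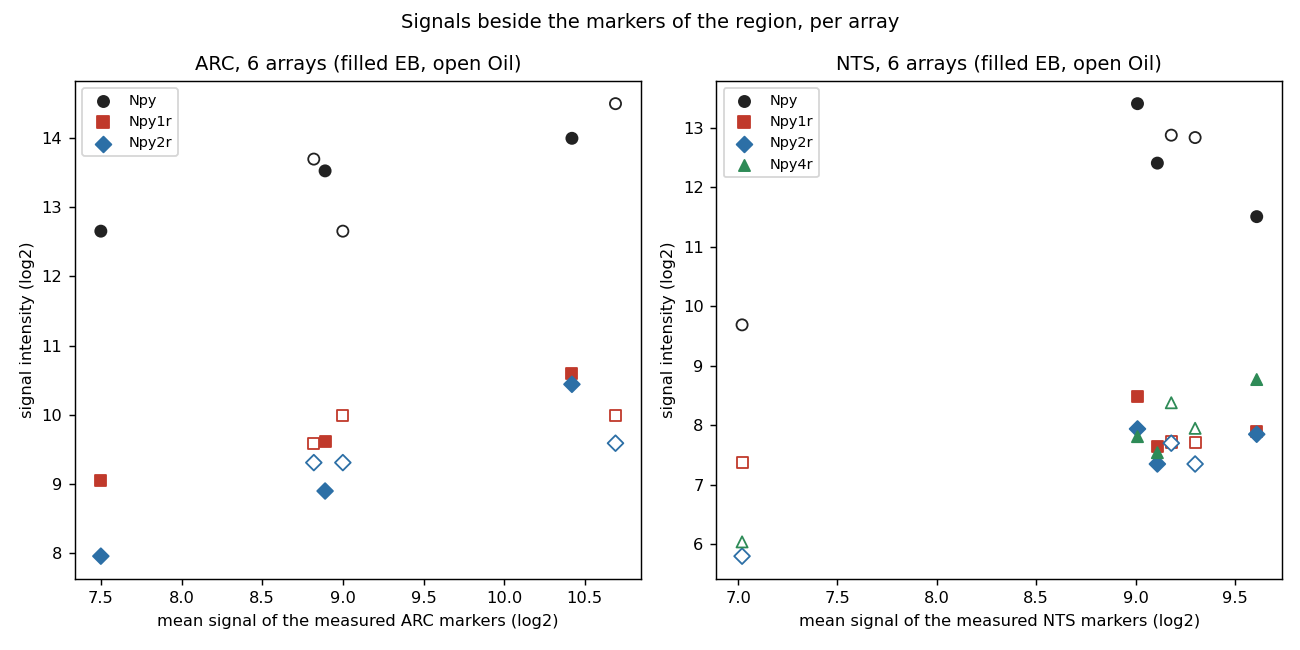
Signal intensity (log2, vertical axis) of the members with a sample above background in the region against the mean signal of the region's measured markers (log2, horizontal axis) in the 6 ARC and 6 NTS arrays, filled for EB and open for Oil. ARC EB 2, at a marker mean of 7.50, and NTS Oil 3, at 7.02, lie at the left and at or near the bottom for each gene.

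Over the deviations of the 18 arrays from their 6 group means, Npy and Npy2r correlated at r = 0.69, Npy1r and Npy2r at 0.68, and Npy2r and Npy4r at 0.67. The neighbours Npy1r and Npy5r correlated at 0.24. These values describe 18 arrays, and all genes of an array come from the same punch. Over the arrays themselves, Npy1r and Npy2r correlated at 0.84 and Npy1r and Npy4r at -0.52. Over the deviations from the group means Npy1r and Npy4r correlated at 0.50, with the opposite sign. Npy4r lay below background throughout the ARC and PVN. In the NTS, Npy1r and Npy4r each lay above the background median in 5 of 6 arrays.

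Among 8922 named genes with a mean above background, those most like Npy1r over the 18 arrays were Bmal1, a core factor of the circadian clock (r = 0.96), Zswim2 (0.95) and Rasal1, a Ras GTPase-activating protein (0.94). Most like Npy2r were Ppp1r12a, a regulatory subunit of myosin phosphatase (0.94), Maged1 (0.93) and Dcaf7 (0.92). For Npy4r they were Tns1, a focal adhesion protein (0.89), Kcnj14, an inwardly rectifying potassium channel (0.88), and Slc18a3, which loads acetylcholine into vesicles (0.87). For Npy they were Gmppa, Rab34 and Psme2 (0.88, 0.87 and 0.87), and for Npy5r, below background throughout, Mir3542, Sap30bp and Fcgr2al1 (0.78, 0.72 and 0.71).

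Within groups other genes led. The closest to Npy were Fbxl16, Ldha, a lactate dehydrogenase, and Hook1 (0.92, 0.92 and 0.91). The closest to Npy1r were Sstr1, a somatostatin receptor, Timp3, an inhibitor of metalloproteinases, and Lysmd3 (0.92, 0.92 and 0.88). The closest to Npy2r were Mir3102, Nedd4, a ubiquitin ligase, and Arhgap25 (0.95, 0.91 and 0.89), and those to Npy4r were Dchs1, Fndc7 and Sox2, a factor of neural progenitors and glia (0.94, 0.93 and 0.89). Npy5r was closest to Mir3542, Ghsr, the ghrelin receptor, and Fcgr2a (0.82, 0.82 and 0.81). These are the highest of 8922 candidates over 18 arrays that share their punches between genes, and they are descriptions only.

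The other peptides of the family gave no signal. Pyy, the gene of peptide YY, and Ppy, that of pancreatic polypeptide, the ligand that the Npy4r product prefers, lay below background. Of these, 0 of 2 were called with EB in the ARC (0.479% of all genes), PVN (0.332%) and NTS (0.0776%). Differences between regions below background, such as 0.38 for Ppy in PVN minus NTS, carry no fold.

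Of 10 genes of the ARC neurons that make Npy and Agrp, 9 were measured. With EB, 0 were called in the ARC (0.479% of all genes), PVN (0.332%) and NTS (0.0776%). At such shares a count of 0 says little about a list of this size. The median EB minus Oil difference of the 9 was -0.45 for ARC, 0.27 for PVN and -0.12 for NTS, beside 0.01, -0.00 and -0.01 over all genes. Agrp, the partner peptide, read 7.82, 5.99 and 6.81 with EB and 6.86, 9.55 and 6.81 with Oil in the ARC, so that ARC EB 2, ARC EB 3 and ARC Oil 3 lay below background, as did each sample of the PVN and NTS. Corin, a protease, had the smallest p in the ARC (-0.45, SE 0.13, limma adjusted p = 0.852), followed by Gad1, which makes GABA (-0.51, SE 0.25). In the PVN Otp, a homeobox factor, differed by 0.75 (SE 0.16, limma adjusted p = 0.681), without a call. Against the NTS, the ARC was higher for 5 of the 9, Agrp among them with its NTS samples below background, and lower for 1, where over all 23188 genes 6110 were higher and 4172 lower (44.3% called). Ghsr, the ghrelin receptor gene (0.85), and Otp (1.30) were among the higher, and Slc32a1, the vesicular GABA transporter, was the lower (-1.21). Otp, also a PVN marker, lay below background in NTS EB 1, EB 3, Oil 1 and Oil 3, where 0 of the 7 PVN markers lay above it.

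Of 12 genes that process, store or cut the peptide, 11 were measured. With EB, 0 were called in the ARC (0.479% of all genes), PVN (0.332%) and NTS (0.0776%), with medians of 0.08, 0.07 and 0.11. Pcsk2, a prohormone convertase, differed by 0.41 in the PVN (SE 0.21). Between regions 6 were higher and 1 lower in the ARC than in the NTS, and 5 were higher and 2 lower in the PVN than in the NTS. Over all genes 44.3% were called for ARC minus NTS and 37.5% for PVN minus NTS, 4403 of these higher and 4294 lower in the PVN. Pam, which amidates the end of peptides such as neuropeptide Y, was higher in the ARC by 1.81 (SE 0.13, limma adjusted p = 2.04e-07) and in the PVN by 1.39. Dpp4, a peptidase that trims neuropeptide Y, was higher in the ARC than in the NTS by 1.14 and than in the PVN by 0.67. Mme, the other listed gene whose product cuts the peptide, was lower in the PVN than in the NTS (-1.38, limma adjusted p = 0.0345). For ARC minus NTS Mme was not called (-0.65). The other genes called lower than in the NTS were Chga in the ARC (-0.34) and Scg3 in the PVN (-0.34). In each NTS sample 10 of the 11 measured genes lay above background, and in the PVN samples 9 or 10.

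Of 31 genes of receptor signalling, 28 were measured. With EB, 1 was called in the PVN (0.332% of all genes) and 0 in the ARC (0.479%) and NTS (0.0776%). The medians were 0.09, 0.06 and 0.09 in the ARC, PVN and NTS. The gene called was Rgs4, which speeds the shut-off of Gi/o proteins. It read 9.87, 9.92 and 8.85 with EB and 8.21, 9.08 and 8.30 with Oil in the PVN, with overlapping groups and its 2 lowest values in the samples with high midbrain markers (1.02, SE 0.34, limma adjusted p = 0.722). In fits added after this value was seen, the call was lost without PVN EB 1 (0.86), EB 2 (0.83), Oil 1 (0.86) or Oil 3 (0.90), and the difference was 0.47 without both of these Oil samples. Adcy5, an adenylyl cyclase, was not called at 0.54 in the PVN (SE 0.13) and 0.43 in the ARC (SE 0.13).

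Between regions, of the 28 signalling genes 16 were higher and 1 lower in the ARC than in the NTS, with a median of 0.37 beside 0.06 over all genes, of which 44.3% were called, 6110 higher and 4172 lower. In the PVN 18 were higher and 0 lower than in the NTS, with a median of 0.40 beside -0.00 over all genes, of which 37.5% were called. Kcnj6, a subunit of the potassium channel these receptors open, was higher than in the NTS by 1.26 in the ARC (SE 0.17, limma adjusted p = 3.49e-05) and by 1.15 in the PVN. Cacna1b, the presynaptic calcium channel they close, was higher by 0.99 and 0.97. Of the other listed channel genes, Kcnj9 was called higher than in the NTS in the ARC (0.60) and PVN (0.70). Cacna1a was called in the PVN (0.45) and not in the ARC (0.28), and Kcnj3 in neither (-0.12 in the ARC and -0.09 in the PVN). Adcy1, an adenylyl cyclase, was the gene that was lower in the ARC (-0.66). Between ARC and PVN, where 21.4% of all genes were called, 1 of the 28 was higher in the ARC, Adcy6 (0.66), and 1 lower, Gnb1 (-0.22).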

How the data were processed

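RNA from ARC, PVN and NTS punches of OVX rats was measured on 18 Rat Clariom S Pico arrays, 3 per group. The deposited values are log2 signal intensities, which the authors obtained from an array service that corrected background, normalized the scanner files and took log2. The submitters' processing notes name TAC 4.0. None of these steps was repeated. The 24834 probe sets comprise 23188 gene probe sets, all tested, and 1646 controls, of which the background ones set the floor. Gene symbols are those of the platform annotation, which names 15049 gene probe sets, and 8139 have no symbol. Lepr, Kiss1 and Pcsk1 are among the list genes with no named probe set.

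The authors' study covered EB against Oil. New fits, made with limma 3.58.1 under R 4.3.3 and no filter, were EB minus Oil on the 6 arrays of a region, and region differences and differences of the EB effect from 1 fit of 18 arrays with 6 group means. Arrays entered it as independent, without a term for rats sampled in several regions. Adjustment was by Benjamini-Hochberg over 23188 genes. SE is limma's moderated standard error. Exact permutation tests are two-sided and unadjusted. The limma p-values set a difference against the variation between these samples, moderated with that of all genes. Arrays have no read depth, and their number limits the precision.

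The 5 genes, the lists and the tests were chosen with earlier results of these data known. Named are the members, list genes called, otherwise those with the smallest p (of these a selection is printed), and the 3 genes most like each member. Agrp, Th, Chat and Pomc were added as markers after their values were seen. Alternatives changed scaling, centring, a filter, moderation, array weights, the samples fitted and a replicate block. The steps were tested on simulated data.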

Additional observations from a re-analysis of the deposited data

How the results depend on the processing

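The calls of Npy1r in the PVN with EB, and of Npy1r, Npy2r and Npy4r against the NTS, were kept in most fits. They and their direction held under quantile normalization, median centring, trend and robust moderation, array weights and every fit without 1 sample. The filter on dim probe sets kept those of Npy1r and Npy2r. The filter removed Npy5r from all fits, Npy4r from all but EB minus Oil in the NTS, and Npy2r from that one, and gave no value for them there. The exceptions are the fits on EB samples only, where Npy2r was 1.39 for ARC minus NTS and 1.01 for PVN minus NTS and Npy4r was -1.36 for PVN minus NTS, without a call. The call of Npy for ARC minus PVN was lost under median centring (1.31), the filter (1.47), trend and robust moderation (1.47), EB samples only (1.55), Oil samples only (1.39) and without PVN Oil 1 and Oil 3 (1.36). In these fits 0 of the 5 genes were called, apart from Oil samples only, where Npy1r was (1.13). Npy for ARC minus NTS was not called with trend and robust moderation (1.38), EB only (0.95) or Oil only (1.81). With EB samples only, 2 members were called for ARC minus NTS and 1 for PVN minus NTS. Differences that changed sign, none of them called, were Npy EB minus Oil in the NTS with array weights (-0.41), and with the same weights Npy for the EB effect in PVN minus NTS (0.04) and NTS minus ARC (-0.20). Others were Npy1r ARC minus PVN with EB only (-0.12) and Npy PVN minus NTS with Oil only (0.42). Npy5r for the EB effect in PVN minus NTS was -0.00 with median centring and -0.02 without it, which is no change of sign. Without PVN Oil 1 and Oil 3 the sign changed for Npy2r in the PVN (-0.79), Npy2r for PVN minus ARC of the EB effect (-0.50), Npy5r for PVN minus NTS of it (0.11), and Npy (0.02) and Npy5r (-0.03) for the regions PVN minus NTS. As a difference of group medians, EB minus Oil changed sign for Npy (-0.43) and Npy4r (-0.13) in the NTS and for Npy5r in the ARC (-0.28). The cause was not tested.

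Over all genes, the filter left 66 calls with EB in the ARC, 9 in the NTS, and 2072, 6501 and 5332 for ARC minus PVN, ARC minus NTS and PVN minus NTS, where fewer genes were tested. Array weights gave 174, 183 and 53 calls with EB in the ARC, PVN and NTS, and 1 fit of all arrays gave 29 in the NTS. EB only gave 1170, 4999 and 4734 calls between regions, Oil only gave 2455 and 4788 for ARC minus PVN and PVN minus NTS. Without PVN Oil 1 and Oil 3 there were 168 calls with EB in the PVN, 2805 for ARC minus PVN and 1 for PVN minus ARC of the EB effect.

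Leaving out 1 sample gave, for EB minus Oil in the ARC, -0.70 to 0.22 for Npy, -0.52 to 0.26 for Npy1r, -0.97 to 0.27 for Npy2r, -0.07 to 0.63 for Npy4r and -0.14 to 0.39 for Npy5r. In the PVN it gave -0.24 to 0.46 for Npy2r, 0.77 to 1.09 for Npy4r and -0.31 to 0.09 for Npy5r, with 1 to 2 members called. In the NTS it gave -0.42 to 1.18 for Npy, -0.12 to 1.05 for Npy4r and -0.24 to 0.04 for Npy5r. ARC minus PVN ranged from 1.25 to 1.71 for Npy and 0.29 to 0.68 for Npy1r, with 0 to 2 members called, ARC minus NTS from 0.85 to 1.65 for Npy, and PVN minus NTS from -0.62 to 0.18 for Npy and -0.08 to 0.12 for Npy5r. For the EB effect, PVN minus ARC ranged from -0.60 to 0.32 for Npy, -0.23 to 1.01 for Npy2r and -0.53 to 0.00 for Npy5r. PVN minus NTS ranged from -1.57 to 0.03 for Npy, -0.16 to 1.01 for Npy4r and -0.19 to 0.21 for Npy5r. NTS minus ARC ranged from -0.19 to 1.40 for Npy, -0.48 to 0.69 for Npy4r and -0.51 to 0.02 for Npy5r. Calls over all genes with EB ranged from 63 to 252 in the ARC, 53 to 211 in the PVN and 27 to 95 in the NTS, and those for the EB effect from 0 to 3 in PVN minus ARC, 0 to 1 in PVN minus NTS and 0 to 1 in NTS minus ARC.

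Whether same-numbered samples come from 1 rat is not stated, and the numbers were not taken as a pairing. Deviations of same-numbered samples correlated at -0.46 to 0.13 between EB and Oil of a region and at -0.11 to 0.42 between regions. With the replicate block Npy1r in the PVN was 1.15 (limma adjusted p = 0.534), and the block changed no call of the 5 genes. Other probe sets could not be tried, since each gene has 1. Signals below background limit what can be read for Npy4r outside the NTS and for Npy5r everywhere.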
